A study of Mus musculus with 6 samples.

Results

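The unfolded protein response and the integrated stress response were examined in mouse embryos that carry or lack a mutation in Fkbp8, through 40 listed genes. Members are named by their role in these pathways. No measured value enters the rule, but the list was chosen with earlier results of these data known. The list holds 6 stress sensors and their transcription factors, 13 chaperones and folding enzymes of the endoplasmic reticulum (ER), 10 genes of the arm controlled by ATF4 and CHOP, 8 genes of amino acid synthesis and transport, and 3 tRNA synthetases. Probes were matched to the list by gene symbol, older symbols included. Of the 40 genes, 36 had a named probe and 35 were tested, with 42 probes, among 13436 named genes tested with 1 probe each and 21688 gene probes tested in all. Aldh18a1, Pdia3, Pdia6 and Nupr1 had no probe by these names and were not analysed here. Slc7a5, a subunit of a large neutral amino acid transporter, had a probe that was above background on 0 of 6 arrays and was unusable on the 3 wildtype arrays, so it was not tested.

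RNA was taken from the part of the embryo behind the forelimb bud at embryonic day 9.5 and measured on 1-colour CodeLink whole-genome oligonucleotide arrays, 1 array per sample. All embryos were offspring of matings between heterozygous parents. The mutant group held 3 samples (a, b and c) labelled as Fkbp8 mutants, and the wildtype group held 3 samples (d, e and f) from wildtype embryos. The mutation itself and the background strain are not given in the sources used here. The source label of mutant a names more than 1 embryo, so it is unclear whether that sample was pooled. Nothing states how the samples of a group relate, and p-values here reflect only how far these 6 samples spread. Fkbp8 encodes an FK506-binding protein that is anchored in membranes of mitochondria and the ER. In posterior tissue at this stage, which holds the caudal neural tube, somites, gut and lateral mesoderm, fewer cells of a type and less RNA per cell cannot be told apart.

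When unfolded proteins accumulate in the ER, the sensors PERK (Eif2ak3), IRE1 (Ern1) and ATF6 signal to the nucleus. ATF6 and the transcription factor XBP1, which IRE1 activates by splicing its mRNA, raise the transcription of chaperones that fold proteins in the ER. PERK, and the related kinases GCN2 (Eif2ak4) and HRI (Eif2ak1), which sense amino acid shortage and haem deficiency, phosphorylate the initiation factor eIF2. That slows translation in general while favouring translation of ATF4, which induces CHOP (Ddit3), genes of amino acid supply and tRNA synthetases. Splicing, phosphorylation and translation are not measured by these arrays, which read mRNA level alone.

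Fkbp8 itself had a mean log2 intensity of 10.66 ± 0.09 (SD, n = 3) in wildtype and was above background on 0 of 3 mutant arrays, at least 18.8-fold lower in the mutants (limma adjusted p = 1.18e-07). On the Y chromosome, Uty, Ddx3y and Eif2s3y exceeded background on all 3 mutant and 0 of 3 wildtype arrays, with Xist the reverse, so genotype and sex cannot be told apart. Between 57.6% and 61.8% of the 34967 gene probes were above background on an array, and arrays correlated at 0.987 to 0.993. Of the erythroid markers, 15 of 16 tested had a positive log2 fold change (median 0.26, 0 past an adjusted p of 0.05), and their summed intensity was 88983 to 112611 in the mutants against 91513 to 112088 in wildtype. Of the neural tube markers, 5 of 6 were negative (median -0.19, 1 past an adjusted p of 0.05), and their summed intensity was 3467 to 3891 in the mutants against 4325 to 4518 in wildtype. The macrophage markers Csf1r, Ptprc, Adgre1 and Mrc1 were not above background on any array. The part of blood and neural tube content in the results on the stress genes was not tested, except where a value with the mean erythroid level as a covariate is given.

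The question was whether the mRNAs of the stress pathways differed between mutant and wildtype tissue. None of the 42 member probes passed an adjusted p of 0.05 in limma, adjusted by the Benjamini-Hochberg method across the 21688 tested probes, a threshold that 26 probes (0.12%) passed. The smallest adjusted p of a member was 0.157. At an unadjusted p under 0.05 there were 7 of the 42 member probes (16.7%), against 12.2% of all probes. Of the 7, 5 were higher in the mutants (all probes 6.43%) and 2 lower (all probes 5.81%). The groups did not overlap on 11 of the 42 probes, against 19.7% of all probes, with the mutants above wildtype on 6 (all probes 11.2%) and below on 5 (all probes 8.56%). With the brightest tested probe taken for each gene, 3 of the 35 genes were higher in the mutants at that level (Vldlr, Ddit3 and Eif2ak3), against 7.29% of all named genes, and 2 were lower (Hspa5 and Canx), against 6.17%. The log2 fold change was above 0 for 21 of the 35 genes (60%), against 53.2% of all named genes, and its median was 0.02 against 0.01. The pathway as a whole therefore lay close to the background, and the branches are described one by one.

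**Figure D1:**
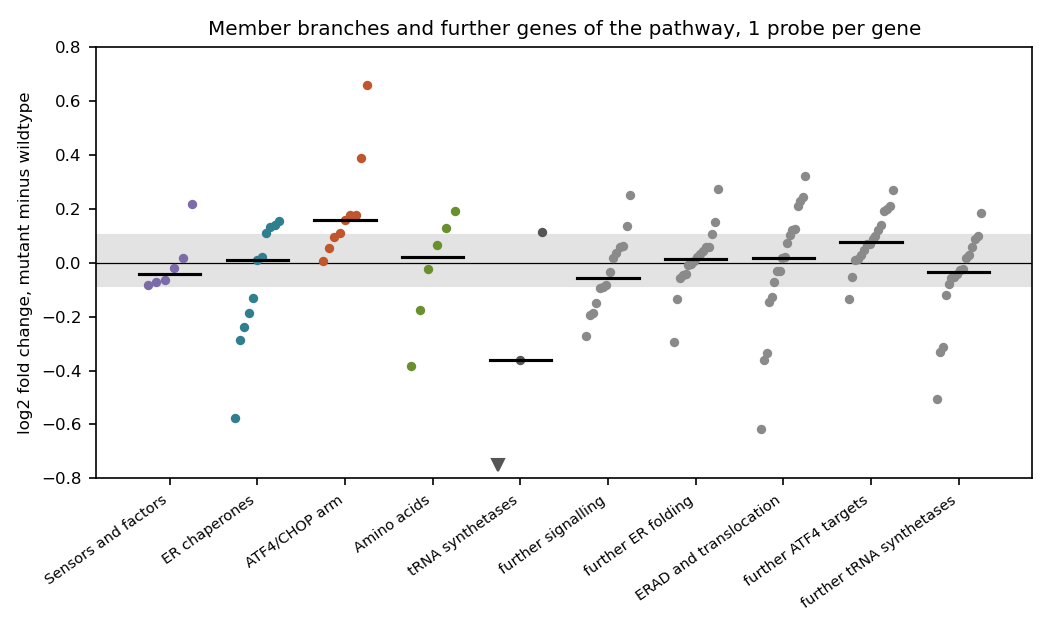
Log2 fold change (mutant minus wildtype, vertical axis) of each tested gene, by brightest probe. The horizontal axis holds the 5 member branches on the left and the 5 lists of further pathway genes on the right. Black bars mark the medians, and a grey band the interquartile range of all 13436 named genes (-0.09 to 0.10). All 9 points of the ATF4/CHOP arm lie above 0 with a median of 0.16, while the other branches have points on both sides, and the downward triangle marks Sars, which is off the scale at -1.43.

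The ATF4/CHOP arm was the branch whose genes leaned 1 way. All 9 tested genes had a positive log2 fold change, from 0.01 for Atf4 to 0.66 for Vldlr, against 53.2% of all named genes. The median was 0.16 and the mean 0.20, against a median of 0.01 and an interquartile range of -0.09 to 0.10 over all named genes. The count was 8 of 9 when mutant a, b or c or wildtype d was left out, and the median was then 0.11 to 0.16. By array, the median deviation of these genes from the wildtype mean was 0.16, 0.11 and 0.09 in mutants a, b and c and -0.04, 0.06 and -0.0005 in wildtype d, e and f. Genes above the wildtype mean numbered 6 of 7 measured in mutant a and 6 of 9 in mutants b and c. In wildtype they numbered 3 of 9 in d, 7 of 9 in e and 4 of 9 in f. Of the 9, 2 (Vldlr and Ddit3) were higher at an unadjusted p under 0.05, against 7.29% of named genes. In 3 (Vldlr, Ddit3 and Trib3) every mutant array lay above every wildtype array, which was the case for 12.1% of named genes. No gene of the arm passed the adjusted threshold. The genes described here include 5 whose promoter window holds the amino acid response element, an 8-base sequence bound by ATF4 together with C/EBP proteins, written TGATGNAA. Windows of 300 bases, 250 of them upstream of the start site, were read from RefSeq on GRCm38.p6 on both strands. Of all 32851 windows 3.97% hold this element, and of all genes with a window 4.51%. The matches of the 4 measured genes that have one are shown 5′ to 3′ on the strand of the gene, with the element in capitals.
Trib3 (chr2:152344028-152344057, minus strand, 14 bases downstream of the start site, element on the opposite strand): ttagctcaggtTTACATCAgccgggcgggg
Vldlr (chr19:27216809-27216838, plus strand, 200 bases upstream, element on the opposite strand): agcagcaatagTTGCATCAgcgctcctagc
Chac1 (chr2:119351038-119351067, plus strand, 193 bases upstream, element on the opposite strand): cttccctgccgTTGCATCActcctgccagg
Atf3 (chr1:191183425-191183454, minus strand, 110 bases upstream, element on the opposite strand): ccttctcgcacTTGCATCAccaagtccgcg
Nupr1, the fifth, had no probe. The window of Ddit3 holds none. A match describes the letters of a window and does not show that the site is bound.

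Vldlr encodes the very low density lipoprotein receptor, which takes up lipoproteins and binds reelin, and its transcription is raised by PERK and ATF4. On its brighter probe (GE42718) the log2 intensity was 8.24 in mutant b and 8.23 in mutant c, against 7.67, 7.36 and 7.69 in wildtype d, e and f. The spot of mutant a was marked contaminated and left out, so the mutant mean rests on 2 arrays, both above all wildtype arrays. The log2 fold change was 0.66 (SE 0.12, 95% interval 0.38 to 0.93), a 1.58-fold higher level, with an adjusted p of 0.157 in limma. A separate, dimmer Vldlr probe (GE116326), which includes mutant a, read 7.02, 7.01 and 7.09 in the mutants against 6.94, 6.71 and 6.66 in wildtype. It gave a log2 fold change of 0.27 (SE 0.09), with an adjusted p in limma of 0.315, again with no overlap between the groups. Both Vldlr probes were thus higher in every usable mutant array, by different amounts.

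Trib3 encodes a pseudokinase that ATF4 and CHOP induce and that binds both ATF4 and the kinase AKT. The probe GE1442542 read 8.14, 8.38 and 8.03 in the mutants against 7.58, 7.80 and 7.62 in wildtype. The groups did not overlap, and the log2 fold change was 0.51 (SE 0.11, 95% interval 0.27 to 0.76), a 1.43-fold higher level, with a limma adjusted p of 0.179. The brighter Trib3 probe (GE129710) read 8.90, 8.89 and 8.87 against 8.81, 8.84 and 8.69, a log2 fold change of 0.11 (SE 0.07), with an adjusted p in limma of 0.583. Its groups did not overlap either, but the difference was much smaller, and the probes were named by the symbol in the array file.

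Ddit3 encodes CHOP, a transcription factor of the C/EBP family that accompanies prolonged ER stress. Its log2 intensity was 9.37, 9.63 and 9.39 in mutants a, b and c and 9.13, 9.25 and 8.84 in wildtype d, e and f. Every mutant array was above every wildtype array. The log2 fold change was 0.39 (SE 0.12, 95% interval 0.11 to 0.66), a 1.31-fold higher level, with a limma adjusted p of 0.288. With the mean log2 level of the erythroid markers as a covariate, the log2 fold change was 0.19 (SE 0.14) for Ddit3. It was 0.44 (SE 0.15) and 0.04 (SE 0.10) for the Trib3 probes GE1442542 and GE129710, and 0.69 (SE 0.16) and 0.17 (SE 0.12) for the Vldlr probes GE42718 and GE116326. With that covariate the difference was thus smaller for Ddit3, for both Trib3 probes and for the Vldlr probe that includes mutant a, and as large for the Vldlr probe that lacks it. The unadjusted p of Ddit3 and of Vldlr GE116326 was then no longer under 0.05.

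Atf4 itself, the transcription factor whose protein is controlled at translation, was among the brightest members. The brighter probe (GE35093) read 13.16, 12.89 and 12.97 in the mutants against 12.97, 13.02 and 13.01 in wildtype, a log2 fold change of 0.01 (SE 0.09, 95% interval -0.20 to 0.21, limma adjusted p = 0.982). The other Atf4 probe (GE39544) read 12.45, 12.65 and 12.60 against 12.41, 12.49 and 12.43, a log2 fold change of 0.13 (SE 0.08), with an adjusted p in limma of 0.555. The groups overlapped on both probes, and the interval of the brighter probe leaves a difference of the size seen for Trib3 GE1442542 outside it.

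The remaining genes of the arm overlapped between the groups. Chac1, which degrades glutathione, differed by 0.18 on the log2 scale (SE 0.11, limma adjusted p = 0.545), with values of 6.66, 6.48 and 6.88 in the mutants against 6.43, 6.60 and 6.47 in wildtype, close to background. The value for Chac1 was 0.07 without mutant c and 0.27 without mutant b. Cebpb, a C/EBP factor that pairs with ATF4 and CHOP, differed by 0.18 (SE 0.16), and by 0.04 without mutant b, 0.05 without wildtype d and 0.33 without mutant c. Atf5, a relative of ATF4 that is also controlled at translation, was 9.66 in mutant b and 8.98 to 9.19 on the other 5 arrays. Without mutant b its log2 fold change of 0.16 (SE 0.16) became -0.04. Atf3, a stress-induced repressor, was measured in 2 mutants at 7.24 and 7.65, on either side of the wildtype values of 7.31 to 7.39. Ppp1r15a (GADD34), the phosphatase subunit that reverses eIF2 phosphorylation, differed by 0.05 (SE 0.08).

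**Figure D2:**
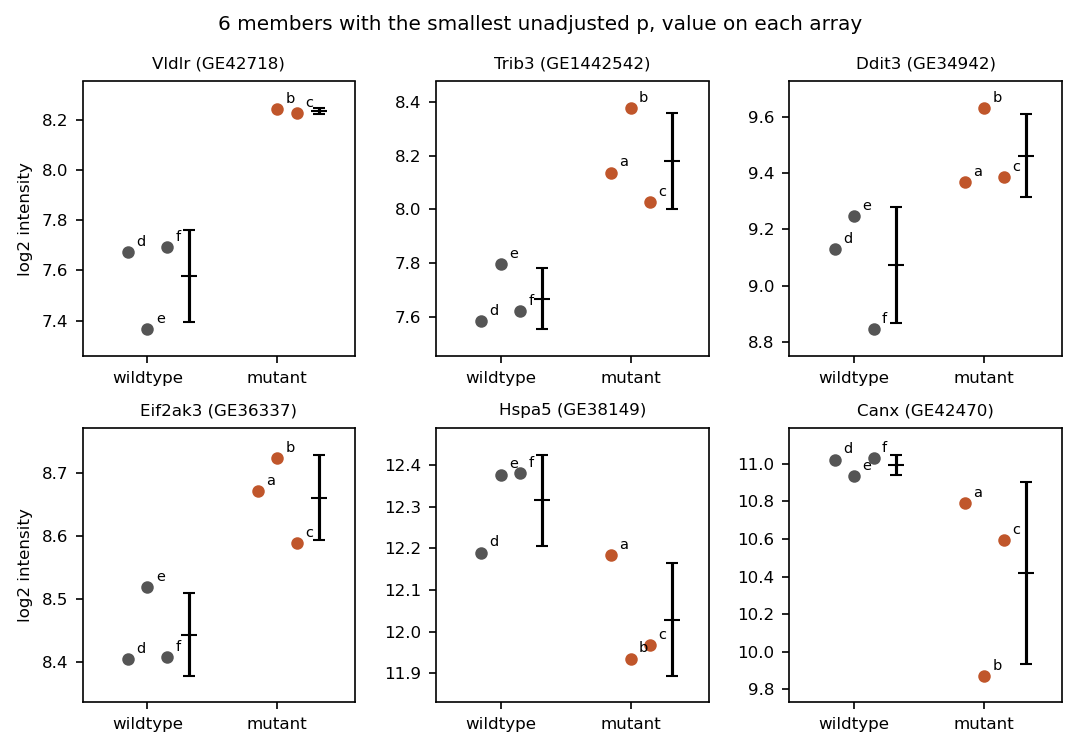
Log2 intensity (vertical axis) on each of the 3 mutant and 3 wildtype arrays, labelled by their letters, for the 6 members with the smallest unadjusted p, 1 panel per gene, with bars for the mean and SD of each group. The mutant points lie above the wildtype points for Vldlr, Trib3, Ddit3 and Eif2ak3 and below them for Hspa5 and Canx, where mutant a (12.18) nearly touches wildtype d (12.19) for Hspa5 and mutant b (9.87) lies lowest for Canx. Vldlr has no point for mutant a. Each gene is shown by its probe with the smallest p, which for Trib3 is the dimmer probe (GE1442542). The brighter Trib3 probe gave a log2 fold change of 0.11. The other Canx probe (GE40069) went the opposite way, at 0.10.

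Among the 6 sensors and their transcription factors, Eif2ak3 was the one whose groups did not overlap. Its mutant arrays all lay above wildtype, which was the case for 12.1% of named genes. Eif2ak3 encodes PERK, the ER-resident kinase that phosphorylates eIF2. Its values were 8.67, 8.72 and 8.59 in the mutants against 8.40, 8.52 and 8.41 in wildtype. This is a log2 fold change of 0.22 (SE 0.08, 95% interval 0.04 to 0.39), a 1.16-fold higher level, with a limma adjusted p of 0.331. With the erythroid covariate it was 0.18 (SE 0.11), with an unadjusted p no longer under 0.05. The other members of this branch had log2 fold changes between -0.08 and 0.02 with overlapping groups. Atf6, the sensor that is cut in the Golgi to release its transcription factor, read 6.925, 6.86 and 6.83 against 6.92, 7.06 and 6.88, a log2 fold change of -0.08 (SE 0.08), with an adjusted p in limma of 0.706. Its probe was named through a clone name that RefSeq lists as a synonym. Eif2ak4, the kinase GCN2, read 8.16, 8.39 and 8.17 against 8.25, 8.30 and 8.38, and Eif2ak1, the kinase HRI, read 7.32, 6.998 and 7.44 against 7.30, 7.40 and 7.26. Each differed by -0.07 (SE 0.09 and 0.12), with mutant values on both sides of wildtype. Ern1, the IRE1 sensor, differed by 0.02 and -0.06 on its 2 probes. The latter (GE41863) read 7.03, 6.97 and 6.92 in the mutants against 6.99, 6.92 and 7.18 in wildtype. Xbp1, whose mRNA IRE1 splices, differed by -0.02. The branch median was -0.04.

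**Figure D3:**
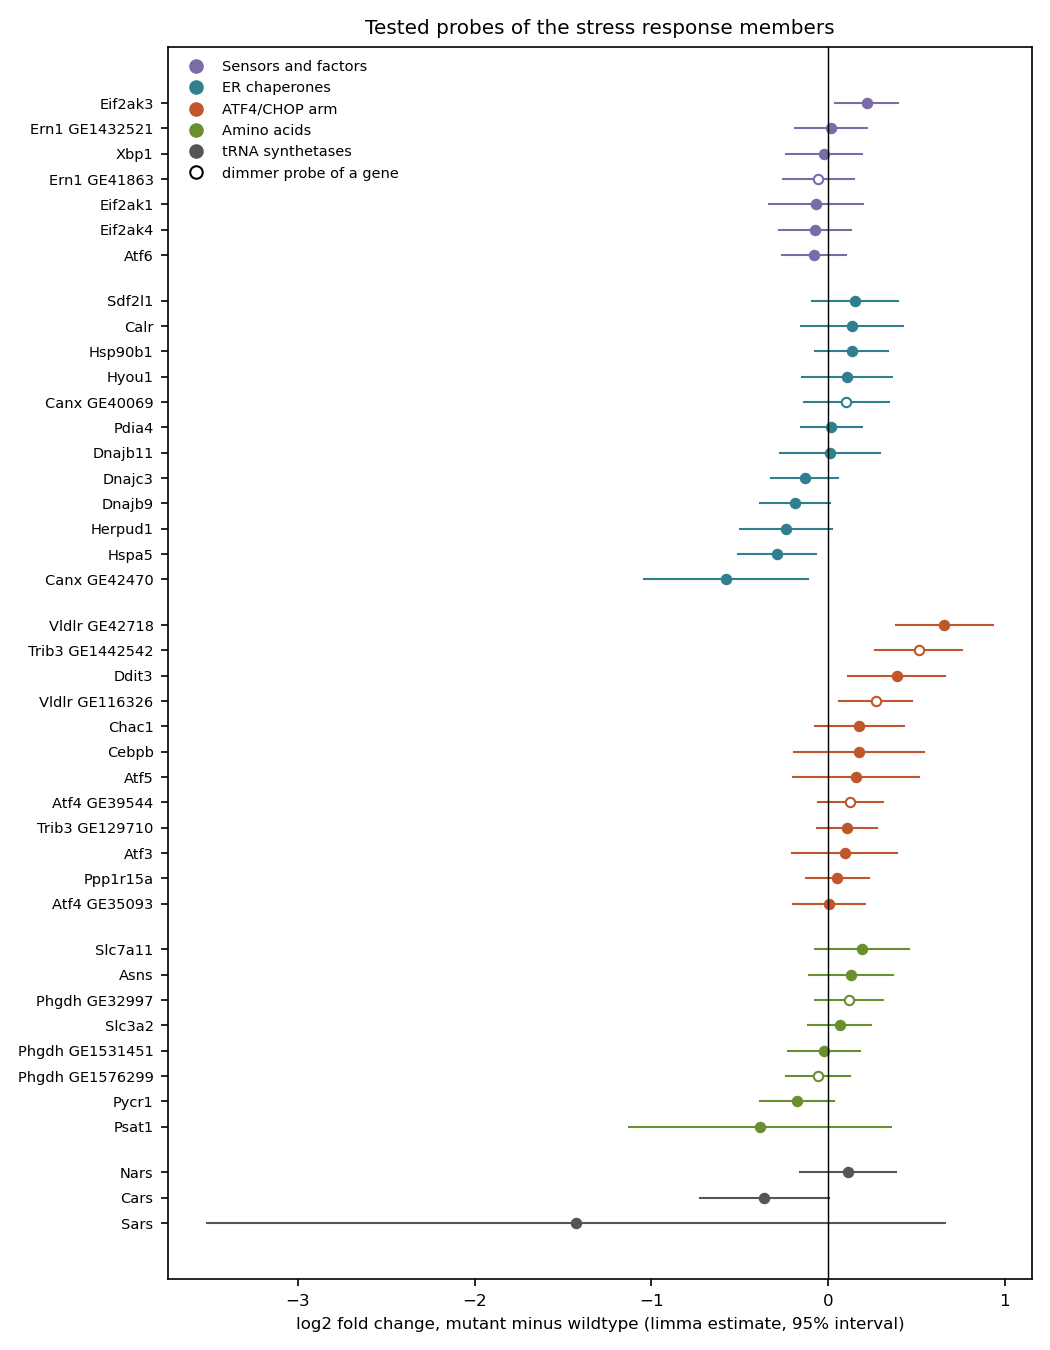
Log2 fold change (mutant minus wildtype, horizontal axis) with its 95% interval for each of the 42 tested member probes (vertical axis), coloured by branch. The intervals of 7 probes exclude 0, which are both Vldlr probes, Trib3 GE1442542, Ddit3 and Eif2ak3 on the positive side and Hspa5 and Canx GE42470 on the negative side, and the Sars interval runs from -3.51 to 0.66.

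The ER chaperones and folding enzymes did not lean 1 way. Of 11 tested genes, 6 had a positive and 5 a negative log2 fold change, with a median of 0.01 and a mean of -0.08. At an unadjusted p under 0.05, none was higher, against 7.29% of named genes, and 2 were lower (Hspa5 and Canx), against 6.17%. In 3 (Hspa5, Canx and Dnajb9) every mutant array lay below every wildtype array, against 8.9% of named genes. This branch held all the members with the ER stress element, a sequence bound by ATF6 with the factor NF-Y and by XBP1, made of CCAAT and CCACG with 9 bases of any kind between them. It occurs in 0.119% of the promoter windows and in 0.137% of the genes that have a window. Of the 12 members of this branch that have a window, 6 hold it, which are Calr, Canx, Dnajc3, Hsp90b1, Hspa5 and Pdia6. Of the 5 tested, 2 (Calr and Hsp90b1) had a positive and 3 (Hspa5, Canx and Dnajc3) a negative log2 fold change. Sites are shown for Hspa5 and Canx, lower at an unadjusted p under 0.05 by their brightest probe. Those of Hsp90b1, a chaperone with a pair of sites that was not lower, are also shown. All are written 5′ to 3′ on the strand of the gene, with the element in capitals.
Hspa5 (chr2:34772005-34772063, plus strand, 65 bases upstream of the start site): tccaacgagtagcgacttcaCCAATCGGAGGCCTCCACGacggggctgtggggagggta
Canx (chr11:50325780-50325838, minus strand, 145 bases upstream): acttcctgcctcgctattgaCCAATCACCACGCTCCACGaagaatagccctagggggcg
Hsp90b1 (chr10:86705618-86705676, minus strand, 212 bases upstream): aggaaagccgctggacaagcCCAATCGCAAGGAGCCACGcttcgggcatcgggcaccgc
Hsp90b1 (chr10:86705513-86705571, minus strand, 107 bases upstream, element on the opposite strand): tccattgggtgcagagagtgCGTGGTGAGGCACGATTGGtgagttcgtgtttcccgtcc
The shorter element TGACGTGG, bound by ATF6 and XBP1, occurs in 0.676% of windows and in 0.714% of genes with a window. It is in 0 of the 35 members that have a window.

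Hspa5 encodes BiP, the most abundant ER chaperone, which also holds the 3 sensors inactive. Its log2 intensity was 12.18, 11.94 and 11.97 in mutants a, b and c, against 12.19, 12.38 and 12.38 in wildtype d, e and f. Mutants b and c were clearly below wildtype, while mutant a lay just under wildtype d. Its log2 fold change was -0.29 (SE 0.10, 95% interval -0.51 to -0.07), a 1.22-fold lower level, with a limma adjusted p of 0.313. With the erythroid covariate it was -0.23 (SE 0.13), with an unadjusted p no longer under 0.05.

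Canx encodes calnexin, a membrane chaperone that folds glycoproteins. Its brighter probe (GE42470) read 10.79, 9.87 and 10.59 in the mutants against 11.02, 10.93 and 11.03 in wildtype. The groups did not overlap, and mutant b was 0.72 below the next array. This gave a log2 fold change of -0.58 (SE 0.20), or 1.49-fold, with an adjusted p of 0.331 in limma. Without mutant b the value was -0.30 (SE 0.09). With the erythroid covariate the value was -0.47 (SE 0.29), with an unadjusted p no longer under 0.05. The other Canx probe (GE40069) went the opposite way, with 7.77, 7.78 and 7.47 against 7.46, 7.68 and 7.56 and a log2 fold change of 0.10 (SE 0.10), with an adjusted p in limma of 0.714. The probes therefore disagree on calnexin.

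Calr, the soluble partner of calnexin, differed by 0.14 (SE 0.13), and Hsp90b1 (GRP94), the ER member of the HSP90 family, by 0.13 (SE 0.09, limma adjusted p = 0.582). Hsp90b1 read 12.77, 12.97 and 12.72 in the mutants against 12.69, 12.60 and 12.77 in wildtype, so the groups overlapped. Sdf2l1, a partner of BiP and its co-chaperones, differed by 0.15 (SE 0.11), or 0.33 (SE 0.12) with the erythroid covariate, and Hyou1 (GRP170), a nucleotide exchange factor of BiP, by 0.11 (SE 0.11). Pdia4, a disulfide isomerase, and Dnajb11, a co-chaperone of BiP, lay at 0.02 and 0.01. On the lower side, Dnajb9 (ERdj4), a co-chaperone of BiP, read 6.63, 6.67 and 6.46 against 6.72, 6.74 and 6.87, a log2 fold change of -0.19 (SE 0.09), with an adjusted p in limma of 0.431. Those values are near background, where the added offset shrinks fold changes. A second Dnajb9 probe (GE1550959) was not above background on any array and was not tested. It read 6.22, 6.27 and 6.23 in the mutants against 6.18, 6.32 and 5.95 in wildtype. Herpud1, an adaptor of ER-associated degradation, read 6.95, 6.92 and 6.64 against 7.19, 7.14 and 6.895, a log2 fold change of -0.24 (SE 0.11), with an adjusted p in limma of 0.444. Mutants a and b lay just above wildtype f. With the erythroid covariate the difference was -0.47 (SE 0.11, limma adjusted p = 0.662), and Herpud1 was then the member gene lower at an unadjusted p under 0.05. Dnajc3 (p58IPK), a co-chaperone of BiP that also inhibits PERK, differed by -0.13 (SE 0.08), again with overlapping groups. An unnamed probe (GE38861), described in the array file as similar to a hamster protein disulfide isomerase of the P5 type, was kept apart from the list and differed by -0.18 (SE 0.16, limma adjusted p = 0.677).

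The genes of amino acid synthesis and transport, many of which ATF4 induces, had a median log2 fold change of 0.02, with 3 positive and 3 negative genes. None had an unadjusted p under 0.05. Asns, asparagine synthetase, read 11.16, 11.40 and 11.35 in the mutants against 11.35, 11.09 and 11.07 in wildtype, a log2 fold change of 0.13 (SE 0.10, 95% interval -0.11 to 0.37, limma adjusted p = 0.637). Mutant a and wildtype d overlapped. Its promoter window holds the amino acid response element 23 bases upstream of the start site, shown with the element in capitals because this site is the textbook example of ATF4 control.
Asns (chr6:7693214-7693243, minus strand): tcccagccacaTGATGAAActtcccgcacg

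The serine pathway enzymes Phgdh and Psat1 did not differ beyond their spread. Phgdh gave log2 fold changes of -0.02, -0.06 and 0.12 on its 3 probes. The last of these (GE32997) read 9.40, 9.33 and 9.16 in the mutants against 9.19, 9.15 and 9.20 in wildtype, with overlapping groups. Psat1 read 11.50, 10.21 and 11.67 in the mutants against 11.42, 11.60 and 11.51 in wildtype, a log2 fold change of -0.38 (SE 0.32), with an adjusted p in limma of 0.661. Mutant b alone was low, 1.22 below the next array, and without it the value was 0.08. Pycr1, which makes proline, was 10.32, 10.48 and 10.54 against 10.54, 10.58 and 10.75, a log2 fold change of -0.18 (SE 0.09), with an adjusted p in limma of 0.474. Every mutant array was below every wildtype array, by a narrow gap. Slc7a11, the cystine transporter, read 6.82, 7.15 and 6.82 against 6.57, 6.84 and 6.80, a log2 fold change of 0.19 (SE 0.12), with an adjusted p in limma of 0.531 and overlapping groups. Its partner chain Slc3a2 differed by 0.07 (SE 0.08). The amino acid response element is in the windows of Asns, Pycr1 and Slc7a11. Over all branches it is in those of 8 tested members, of which 6 had a positive log2 fold change and 2 (Pycr1 and Herpud1) a negative one. The 6 include Trib3, Vldlr, Chac1 and Atf3, already counted in the ATF4/CHOP arm. Of all 325 tested genes with this element 59.4% were positive, against 53.3% of the tested genes with a window.

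The 3 tRNA synthetases on the list, which charge tRNAs with amino acids, were Nars, Cars and Sars. Nars, for asparagine, read 12.33, 11.91 and 12.18 against 12.17, 11.94 and 11.98, a log2 fold change of 0.11 (SE 0.12). Cars, for cysteine, read 9.32, 8.80 and 9.47 against 9.68, 9.502 and 9.497, so every mutant array was below wildtype, with mutant b the lowest. Its log2 fold change was -0.36 (SE 0.16, limma adjusted p = 0.414), and -0.16 (SE 0.10) without mutant b. Sars, for serine, read 6.14, 9.87 and 10.37 in the mutants against 10.14, 10.23 and 10.29 in wildtype. The spot of mutant a was not above background, 3.73 below the next array. The log2 fold change of -1.43 (SE 0.92), with an adjusted p in limma of 0.556, rests on that spot and was -0.10 (SE 0.14) without mutant a. The branch median of -0.36 was -0.10 without mutant a.

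**Figure D4:**
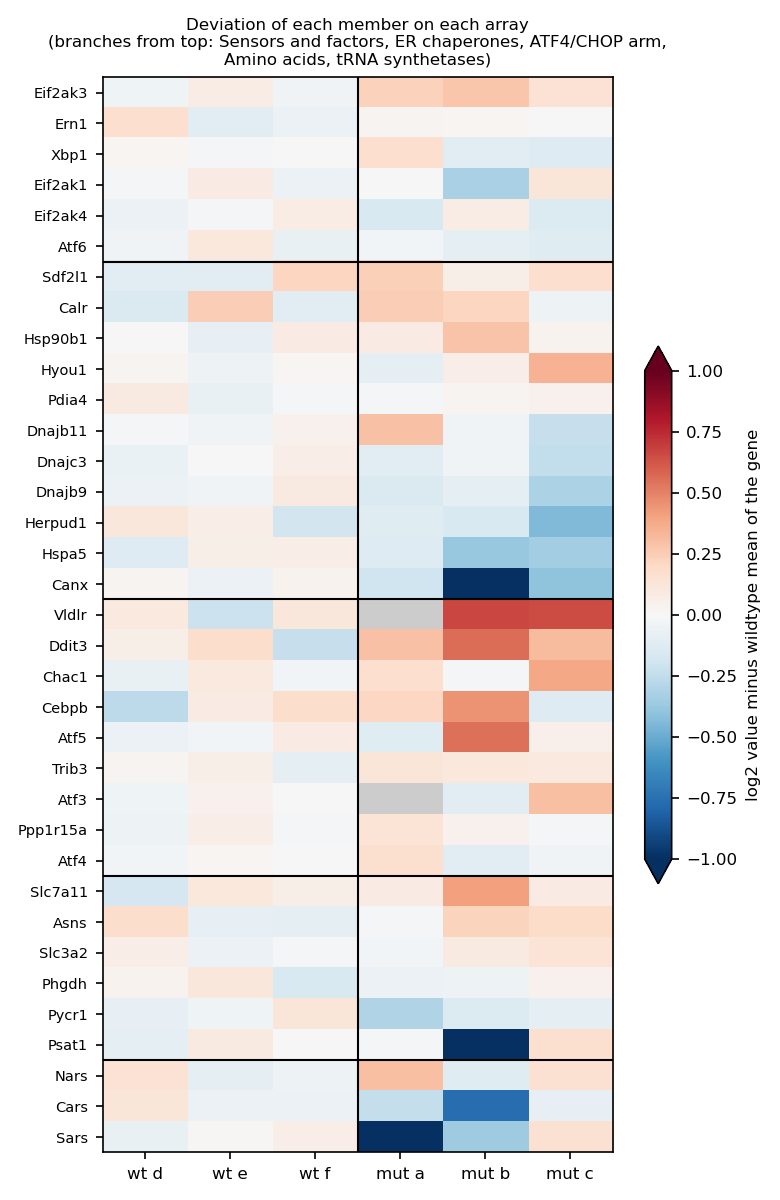
Deviation of each array from the wildtype mean (log2, colour scale) for the tested member genes, by brightest probe (vertical axis), on the 6 arrays (horizontal axis). The strongest negative cells are Sars in mutant a and Psat1, Canx and Cars in mutant b, while the ATF4/CHOP genes lie above the wildtype mean for 6 of 7 measured in mutant a and 6 of 9 in mutants b and c, and also for 7 of 9 in wildtype e.

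A wider list of 84 further pathway genes, chosen by role but with earlier results of these data known, was read the same way. Of 80 tested, 0 passed the adjusted threshold in limma, 7 were higher (all named genes 7.29%) and 3 lower (6.17%) at an unadjusted p under 0.05, and the median log2 fold change was 0.02. Among 16 further targets of ATF4, 14 had a positive log2 fold change (87.5%, against 53.2% of all named genes). Their median was 0.08, against 0.01 for all named genes. At an unadjusted p under 0.05, 1 was higher (Sesn2), against 7.29% of named genes, and 0 were lower, against 6.17%. Sesn2, a stress-induced inhibitor of mTORC1 signalling, differed by 0.19 (SE 0.08, limma adjusted p = 0.392), and Slc38a2, a neutral amino acid transporter, by 0.21 (SE 0.10, limma adjusted p = 0.428). Both values are smaller than those of Vldlr and Ddit3.

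The further ER genes went both ways. Sec61a1, the pore of the ER translocon, differed by -0.34 (SE 0.11, limma adjusted p = 0.303), whereas Edem1, a lectin of ER-associated degradation, differed by 0.23 (SE 0.08, limma adjusted p = 0.327) and Ero1b, an ER oxidase, by 0.27 (SE 0.09, limma adjusted p = 0.299). Hspa13, a member of the HSP70 family, differed by -0.13 (SE 0.07, limma adjusted p = 0.486). Nfe2l2 (NRF2), an antioxidant transcription factor, differed by 0.25 (SE 0.10, limma adjusted p = 0.370). Among the signalling genes, Ppp1r15b, the constitutive eIF2 phosphatase subunit, differed by -0.19 (SE 0.10, limma adjusted p = 0.473).

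The further cytosolic tRNA synthetases went both ways. With the 3 members, 19 synthetases were tested, of which 7 had a positive and 12 a negative log2 fold change, with a median of -0.04. Wars, for tryptophan, was the 1 of the 19 with an unadjusted p under 0.05. At that level 7.29% of all named genes were higher and 6.17% lower. Wars read 9.41, 9.18 and 9.56 in the mutants against 9.93, 9.73 and 10.01 in wildtype. Every mutant array was below every wildtype array, as for 8.9% of named genes. Its log2 fold change was -0.50 (SE 0.12, limma adjusted p = 0.218). Farsb, a subunit of the phenylalanine enzyme, differed by -0.31 (SE 0.16, limma adjusted p = 0.474).

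The precision bounds these statements. The median SE of a member's log2 fold change was 0.10, and the 95% interval lay within 1 of 0 for 39 of the 42 probes and within 0.5 for 32. With 3 arrays against 3, an exact two-sided permutation test of a single gene cannot give a p below 0.1.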

How the data were processed

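The scanner tables deposited for the 6 arrays give spot mean and local background median as intensity, measured with CodeLink Expression Analysis 4.1.0.29054, per the file headers. Masked spots and spots marked contaminated or irregular were set to missing. Background was corrected with normexp (offset 50, which shrinks fold changes of dim genes), control spots were left out, and quantile normalization was applied to the log2 values. Testing took probes that the software marked good or saturated on 3 or more of the 6 arrays and that had 2 or more usable spots in each group, with limma 3.58.1 (R 4.3.3), two-sided, with Benjamini-Hochberg adjustment over 21688 probes and a threshold of 0.05. Names came from the platform annotation, RefSeq (GRCm38.p6) and the array file. 22785 probes had 1 symbol, 204 several and 11978 none. The branch of each gene is read from its brightest tested probe. Every measured member is accounted for. Values in each array are given for up to 4 members per branch with the smallest p among their tested probes, and also for Eif2ak1. They are also given for Atf4, Atf5, Atf3, Hsp90b1 and Psat1, chosen after their values were seen. Up to 2 further pathway genes per list are named by smallest p. Members and lists were chosen with earlier results of these data known. Groups came from sample titles. The alternatives were other background corrections, normalizations and filters, the deposited normalized intensity as log2(value + 0.1), the mean erythroid level as a covariate, and leaving out each array.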

Additional observations from a re-analysis of the deposited data

How the results depend on the processing

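No paired analysis was possible because the replicate letters of the groups (a to c and d to f) are not shared. In the file headers, mutant a and wildtype d carry sample names with the same leading number, but its meaning is not stated and no block was fitted for that single pair. Over 19 alternatives, 0 member probes and 0 further pathway genes passed an adjusted p of 0.05 in limma, the smallest being 0.109 for Vldlr GE42718 without mutant a. The sign of the log2 fold change was kept throughout for 30 of 42 member probes, and 26 of 750 values changed sign. With median centring these were Phgdh GE1531451 (0.026) and Xbp1 (0.038), and the amino acid median was 0.088. With cyclic loess they were Dnajb11 (-0.00269) and Atf4 GE35093 (-0.012), without background correction Ern1 GE1432521 (-0.037), and in the deposited table Xbp1 (0.00302). With the erythroid covariate they were Dnajb11 (-0.058), Ern1 (0.021 and -0.081) and Pdia4 (-0.00773). Leaving out each array in turn gave ranges of -0.131 to 0.129 for Dnajb11, -0.073 to 0.066 for Atf4 GE35093, -0.036 to 0.30 for Atf5, -0.66 to 0.075 for Psat1, -0.16 to 0.062 for Eif2ak1, -0.117 to 0.032 for Xbp1, -0.113 to 0.302 for Atf3, -0.012 to 0.208 for Hyou1, -0.100 to 0.035 for Phgdh GE1531451, -0.017 to 0.064 for Pdia4, -0.039 to 0.102 for Ern1 GE1432521 and -0.111 to 0.017 for Ern1 GE41863. The cause was not tested.

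All probes past the threshold numbered 26 in the reported setting, 16 with median centring, the deposited table or the filter on all 6 arrays, 13 with a floor in place of normexp, 8 with the erythroid covariate and 11 to 39 without 1 array. Member genes lower at an unadjusted p under 0.05 numbered 1 with median centring, the deposited table or the covariate, and 1 to 4 without 1 array (4 without mutant a or mutant c). The tRNA synthetase median was -0.12 over probes above background on all 6 arrays. Without 1 array, the medians ranged from -0.50 to -0.098 for the synthetases, from -0.13 (without mutant a) to 0.014 for the chaperones, from -0.066 to 0.018 for the sensors and from 0.11 to 0.16 for the ATF4/CHOP arm. Precision is limited by 3 arrays a group, and dim probes such as those of Chac1 and Dnajb9 have compressed fold changes.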

Other observations

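Over all genes, the ER stress element was in the promoter window of 20 tested genes, of which 12 had a positive log2 fold change (median 0.11). At an unadjusted p under 0.05, 6 were higher in the mutants (Hnrnpa3, Pan2, 1700122E12Rik, Alg12, Ero1b and Xlr3b), against 7.33% of the tested genes with a window, and 2 were lower (Hspa5 and Canx), against 6.02%. Xlr3b, an X-linked gene, was the one past an adjusted p of 0.05 in limma. The amino acid response element was in the window of 325 tested genes, of which 59.4% had a positive log2 fold change (median 0.03), against 53.3% of the tested genes with a window. Of these, 6.77% were higher at an unadjusted p under 0.05 and 4.31% lower.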
